A study of Medicago truncatula with 12 samples.

Results

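The onset of salt stress was examined in seedlings of *Medicago truncatula*, a model legume, by setting the library collected at 2 h of salt (Salt_2h) against the library collected at 0 h of the same treatment (Salt_0h). These are 2 of the 12 libraries of an RNA-seq series of cold, drought and salt stress at 0, 2, 6 and 12 h. Expression was given as FPKM, the number of sequenced fragments on a gene divided by its transcript length and by the depth of the library. A gene was tested when its FPKM reached 1 in Salt_0h or in Salt_2h, which held for 23411 of 54073 genes.

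All plants were wild type, strain Jemalong A17, 4 weeks old, grown in 14 h of light and 10 h of darkness, and the tissue was the seedling. Salt was given as NaCl in Hoagland nutrient solution. Salt_0h, Cold_0h and Drought_0h are the libraries from before each treatment, and Cold_2h and Drought_2h are those from 2 h of cold and of drought. Each condition is represented by 1 library, so the spread between plants is unknown, no test across genes was made, and intervals cover counting error only. The series files used here hold no unstressed library at 2 h, so the effects of salt, of time of day and of handling cannot be told apart. Tissue markers could not be checked because the gene identifiers of the files did not match the names of the reference table.

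High salt reaches plant cells first as an osmotic stress, which limits water uptake, and later as an ionic stress, when sodium accumulates in the tissue. Sugars serve in such stresses as osmolytes, as an energy source and as signals, and they are moved between cells and compartments by transporters. SWEET proteins are sugar uniporters of the plasma membrane and the vacuole. Members of clades I and II mostly carry hexoses, those of clade III mostly carry sucrose, and those of clade IV lie in the vacuolar membrane.

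Because all 3 libraries at 0 h come from untreated plants of the same strain and age, they were first compared with each other. Salt_0h stood apart from all other libraries in its low counts. FPKM values could be turned back into whole fragments for all 37274 genes above 0, and 593 genes held exactly 1 fragment in Salt_0h, against 1459 to 2735 in the other libraries, with Salt_2h the highest. For 2 fragments there were 517 genes in Salt_0h against 888 to 1270 elsewhere, and for 5 fragments 395 against 422 to 561. Salt_0h had 26804 genes above 0, the fewest of all libraries, and Salt_2h had 32054, the most. The number of genes at 0 despite at least 10 fragments in both other libraries at 0 h was 40 for Salt_0h, 2 for Cold_0h and 0 for Drought_0h. Depth, with each fragment counted as 2 reads, was 29760086 mapped reads in Salt_0h and 47796253 in Salt_2h, within the 27131295 to 56185408 of the series. On a transcript of 1 kb, 3 fragments correspond to an FPKM of 0.202 in Salt_0h and 0.126 in Salt_2h.

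**Figure D1:**
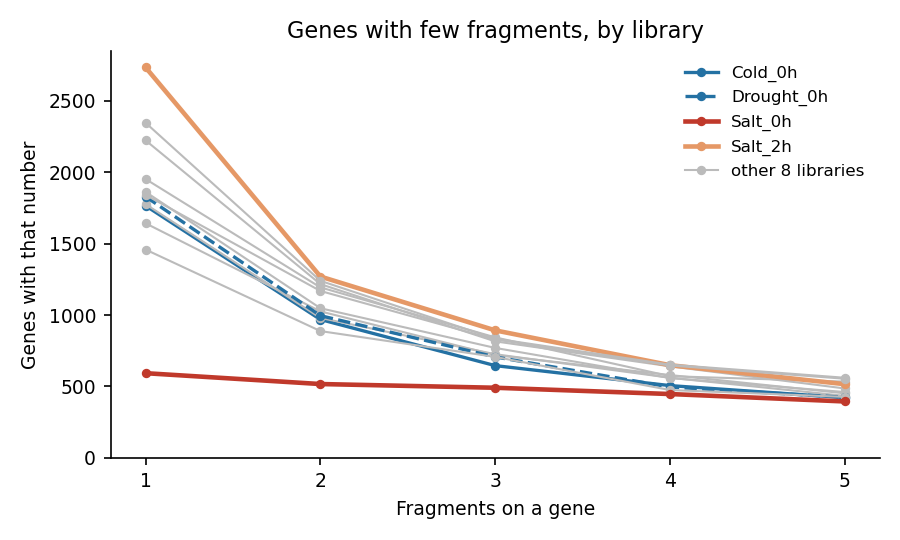
Number of genes (vertical axis) that hold exactly 1, 2, 3, 4 or 5 fragments (horizontal axis) in each of the 12 libraries, 1 line per library. The line of Salt_0h is nearly flat and starts at 593 genes, whereas the others start between 1459 and 2735.

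A gene was called raised when its FPKM in Salt_2h was at least 2 times that at 0 h, and lowered when it was at most 0.5 times, with an FPKM of at least 1 in either library. Between untreated libraries this rule was met by 2.34% of genes for Cold_0h against Drought_0h (1.11% higher, 1.23% lower). It was met by 6.3% for Salt_0h against Cold_0h (3.28% higher, 3.02% lower) and by 6.05% for Salt_0h against Drought_0h (3.11% higher, 2.94% lower). These pairs are the nearest to replicates in the series. Salt_0h was 2-fold above both others for 465 genes (2.04%) and 2-fold below both for 374 (1.64%), while the same counts were 120 (0.527%) and 101 (0.444%) for Cold_0h and 120 (0.526%) and 69 (0.303%) for Drought_0h. The excess lay in genes of low level. Among genes whose higher FPKM was 1 to 5, 8.6% were called higher in Salt_0h than in Cold_0h and 8.08% lower, whereas at an FPKM of 100 or more it was 0 of 929 genes either way.

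At 2 h of salt, 2768 genes (11.8%) were raised and 3405 (14.5%) were lowered relative to Salt_0h, together 26.4% of the genes tested. An FPKM of 1 was reached in Salt_0h by 1581 of the raised genes and in Salt_2h by 2226 of the lowered genes. The others passed the filter only through the library in which they were high. Against Cold_0h, 11% were raised and 12.6% lowered, and against Drought_0h 11% were raised and 12.4% lowered. The share past the rule in either direction was 23.6% and 23.3% in these comparisons, above the 2.34% to 6.3% between libraries at 0 h. Another 12750 genes (54.5%) lay within 1.5-fold of their Salt_0h value. Here and in all results below, a smaller share of cells of one type and less RNA per cell cannot be told apart, since whole seedlings were sampled.

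**Figure D2:**
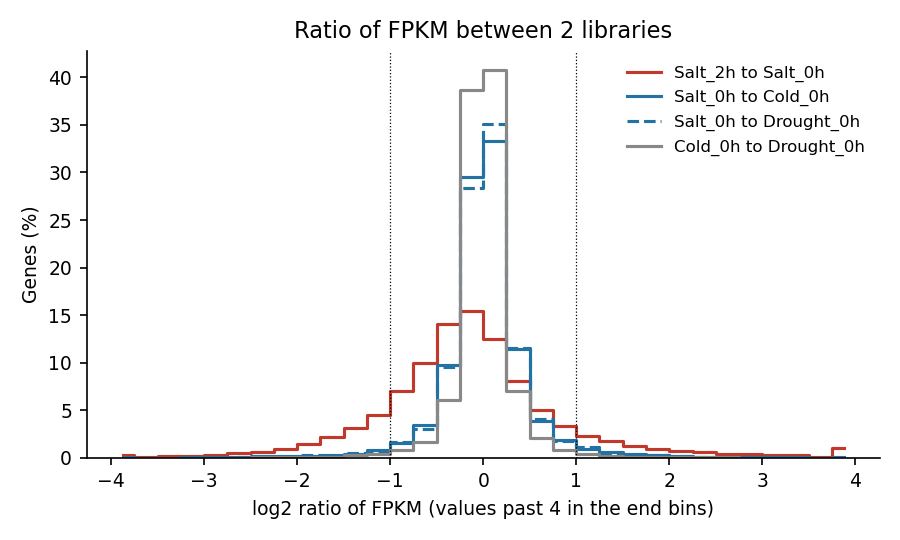
Share of genes (vertical axis, %) by log2 ratio of FPKM between 2 libraries (horizontal axis, bins of equal width, dotted lines at 2-fold), for genes above 0 in both. The curve of Salt_2h to Salt_0h is the widest, with its 5th and 95th percentiles at -1.68 and 1.67, against -0.64 and 0.73 for Salt_0h to Cold_0h.

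The distribution of ratios was shifted and uneven. The median log2 ratio of Salt_2h to Salt_0h was -0.18, the quartiles were -0.65 and 0.29, and the 5th and 95th percentiles were -1.68 and 1.67. Small falls were thus more frequent than small rises, but the far ends lay the other way, with the 1st percentile at -2.82 and the 99th at 3.70. Over the 21512 genes whose fragments in both salt libraries summed to 50 or more, the median squared deviation of the log ratio from its median was 26.8 times that expected from counting error alone, compared with 1.54 to 4.13 times for the pairs at 0 h. Scaling the libraries by their median ratio would raise Salt_2h values relative to Salt_0h by 0.15 on the log2 scale, and the share of raised genes among those called would then be 53.9% in place of 44.8%.

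The calls were then repeated with Cold_0h and with Drought_0h. The call held against all 3 for 1998 raised genes (72.2% of those raised, 8.53% of the genes tested) and for 1928 lowered genes (56.6% of those lowered, 8.24% of the genes tested). It was made against Salt_0h only for 477 raised and 979 lowered genes. A further 239 genes were raised and 384 lowered against Cold_0h and Drought_0h but not against Salt_0h. With Salt_0h left out, a check added after the data were seen, 2237 genes were raised and 2312 lowered against both other libraries. For 32 genes the direction against Cold_0h or Drought_0h was opposite to that against Salt_0h, 20 of them raised against Salt_0h. The excess of lowered over raised genes was thus seen against each single library, but not among calls that held against all 3, of which 50.9% were raised, and it turned to an excess of raised genes relative to Salt_0h (53.9%) under the median ratio scaling.

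**Figure D3:**
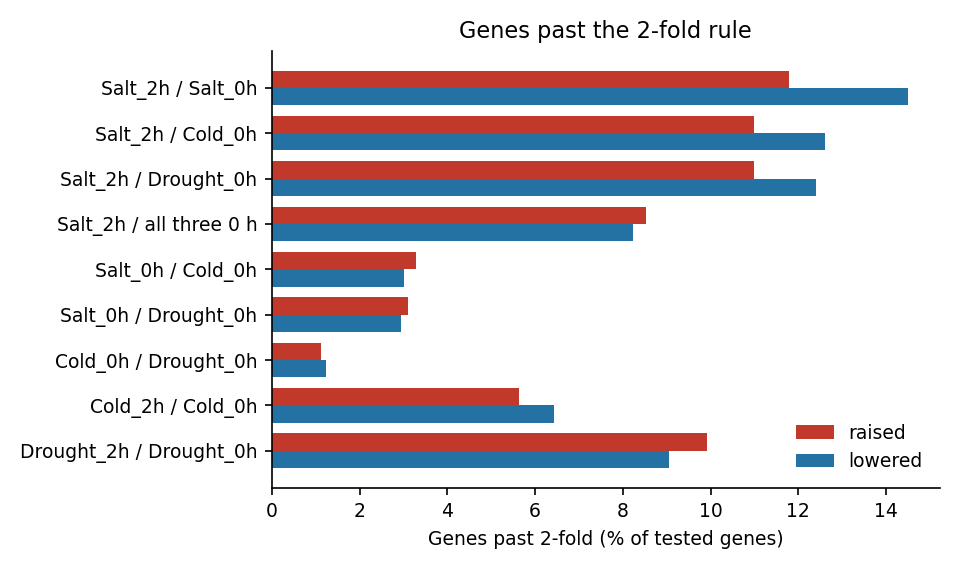
Genes past the 2-fold rule as a share of the genes tested (horizontal axis, %), raised and lowered, for Salt_2h against each library at 0 h and against all of them, for pairs of libraries at 0 h, and for 2 h of cold and of drought. Salt_2h against Salt_0h has the longest bars, 11.8% and 14.5%, and the pairs at 0 h stay between 1.11% and 3.28%.

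The calls depended on expression level. Among genes whose higher FPKM was 1 to 5, 1617 of 7538 (21.5%) were lowered and 1255 (16.6%) raised, and at 5 to 20 it was 1246 of 9272 (13.4%) and 728 (7.85%). At 20 to 100 the order was turned, with 623 of 5518 raised (11.3%) and 468 lowered (8.48%), and at 100 or more 162 of 1083 (15%) were raised and 74 (6.83%) lowered. Most calls of genes with a higher FPKM of 100 or more held against all 3 libraries, namely 151 of the 162 raised (93.2%) and 70 of the 74 lowered (94.6%). When only an FPKM of 5 in either salt library was asked for, 1238 of 1513 raised genes (81.8%) and 1231 of 1788 lowered genes (68.8%) held.

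Large changes were mostly rises. To keep genes near 0 from giving unbounded ratios, a library with under 3 fragments was set to 3 fragments in these counts. Relative to every library at 0 h, 719 genes were at least 4-fold higher at 2 h of salt and 293 at least 4-fold lower. At 16-fold the numbers were 134 and 13, and at 64-fold they were 26 and 1. Of the 134 genes at least 16-fold higher, 65 reached an FPKM of 20 in Salt_2h. Of the 13 at least 16-fold lower, 2 reached that level at 0 h. The level was asked of Salt_2h for rises and of 0 h for falls. The 65 and 2 therefore come from differently chosen genes and do not compare the directions.

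The genes raised against all 3 libraries had a median FPKM of 1.77 in Salt_0h, 1.89 in Cold_0h and 1.79 in Drought_0h, and of 9.28 in Salt_2h. Together they made up 3.23% to 3.35% of the summed FPKM of a library at 0 h and 13% in Salt_2h. The genes lowered against all 3 went from a median of 7.25 to 7.41 at 0 h to 2.25 in Salt_2h, and from 7.08% of the summed FPKM in Salt_0h to 2.47%. These levels describe how the sets were chosen, since the 0 h and Salt_2h values made the calls. The sum of FPKM over all genes was 551674 in Salt_0h and 553349 in Salt_2h.

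At the low end, 139 raised genes held 0 fragments in every library at 0 h, and their highest FPKM in Salt_2h was 10.5. A wider set of 348 raised genes held at most 3 fragments in each library at 0 h. Of these, 12 reached an FPKM of 10 or more in Salt_2h, the highest being 59.4. In Cold_2h and in Drought_2h, 135 of the 348 also held at most 3 fragments. The 348 were chosen for low counts in Cold_0h and Drought_0h, and the same share over all genes was not counted. The 135 are therefore not shown to be particular to salt. In the other direction, 68 lowered genes held at most 3 fragments in Salt_2h, and 13 of them held none. In the salt pair itself, 477 tested genes were at 0 in Salt_0h with a median FPKM of 1.72 in Salt_2h, and 369 of them were raised against all 3 libraries, so that 477 of the 2768 raised genes were listed at 0 in Salt_0h.

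Transcript length did not enter the rule. The median length, as recovered from the FPKM steps, was 1260 bp for the genes raised against all 3 libraries and 1419 bp for those lowered, compared with 1619 bp for all genes tested. Fragments follow from the FPKM values that made the calls and are given as a description. Their median number in both salt libraries together was 338, 240 and 517, and fewer than 50 fragments were found for 21.5% of raised, 13.5% of lowered and 9.82% of all tested genes. Shorter genes carry fewer fragments at a given FPKM, and the part of this in the length difference was not tested. Calls were spread over the chromosomes named in the identifiers, with 10.4% to 12.8% of genes raised and 13.2% to 16.9% lowered relative to Salt_0h on each. Of the 701 genes with other identifiers, 16% were raised and 27.8% lowered relative to Salt_0h, but 9.27% and 9.56% against all 3 libraries at 0 h, near the 8.53% and 8.24% of all genes tested.

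Called genes also had a neighbour called in the same direction more often than the other tested genes did. With the 22710 tested genes that have a locus number placed in order of that number, 652 of 1933 genes raised against all 3 libraries (33.7%) had a raised neighbour, compared with 14.3% of the genes not raised. For lowered genes it was 513 of 1861 (27.6%) and 14.3%. Runs of 3 or more raised neighbours numbered 66 and held 226 genes, and the longest had 9 genes with FPKM of 0 to 1.54 at 0 h and 1.33 to 4.5 in Salt_2h. The longest lowered run had 6 genes, at 1.51 to 40.2 at 0 h and 0.485 to 8.59 in Salt_2h. Neighbouring genes can be tandem copies that share reads, and the part of shared reads in these runs was not tested.

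Only identifiers can be given for the genes with the largest changes, and by a fixed rule 2 that were raised and 2 that were lowered are named. *MTR_6g084640* had an FPKM of 2.79 in Salt_0h, 1.37 in Cold_0h and 0.88 in Drought_0h, and of 443 in Salt_2h. All 3 libraries at 0 h were low, and the rise relative to Salt_0h was 159-fold (log2 ratio 7.31, 95% interval 6.93 to 7.71, from 56 and 14266 fragments). Its FPKM was 1114 at 6 h and 2400 at 12 h of salt. It was 33.3 in Drought_2h and 1.79 in Cold_2h, the latter within the values at 0 h.

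*MTR_4g011270* had an FPKM of 2.61 in Salt_0h, 1.16 in Cold_0h, 0.569 in Drought_0h and 294 in Salt_2h, a 112-fold rise relative to Salt_0h (log2 ratio 6.81, 95% interval 6.27 to 7.42, from 27 and 4878 fragments). Its FPKM was 423 at 6 h and 416 at 12 h of salt, 118 in Drought_2h and 0.932 in Cold_2h. For both genes Salt_0h was the highest of the libraries at 0 h, and the log2 ratios relative to Drought_0h were larger, 8.97 for *MTR_6g084640* and 9.01 for *MTR_4g011270*.

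*MTR_7g033570* held 728 fragments in Salt_0h (FPKM 28), 688 in Cold_0h (24.3) and 683 in Drought_0h (22.1), and was listed at 0 in Salt_2h. With 3 fragments as the limit of a count of 0, it was at least 308-fold lower than in every library at 0 h. The gene was at an FPKM of 6.46 (258 fragments) at 6 h of salt and 0.268 at 12 h, and at 10.5 in Drought_2h and 12.7 in Cold_2h. It was 1 of 4 genes at 0 in Salt_2h that held 20 or more fragments in each library at 0 h, and the next highest of them held 48 fragments in its lowest library at 0 h.

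*MTR_6g486230* was at an FPKM of 60.8 in Salt_0h, 84.3 in Cold_0h and 86 in Drought_0h, and at 3.26 in Salt_2h. The log2 ratio to Salt_0h was -4.22 (95% interval -4.59 to -3.87, from 812 and 70 fragments). At 6 h of salt it was at 31.5 and at 12 h at 3.95, so the values after onset did not follow 1 direction. It was at 63.1 in Drought_2h and 44.1 in Cold_2h.

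The genes that can be named are the 25 *MtSWEET* genes and *ACTIN*. The primers below are the oligos the study made for 3 *MtSWEET* genes whose calls at 2 h differ, and they are shown because they carry the sequence of these transcripts. They did not enter the RNA-seq values. They are written 5′ to 3′, and capitals mark the start codon of *MtSWEET9b* behind an added cloning site. The first 4 are qRT-PCR primers of *MtSWEET3c* (identifier *MTR_1g028460*, chromosome 1) and *MtSWEET16* (*MTR_2g436310*, chromosome 2). The last is the forward cloning primer of *MtSWEET9b* (*MTR_7g007490*, chromosome 7).
*MtSWEET3c* forward: tgtgccattgctcttgcatc
*MtSWEET3c* reverse: acttggtcccgcaacgaata
*MtSWEET16* forward: ggctcacctcttgctgtcat
*MtSWEET16* reverse: tataacaaccaaacgccgcc
*MtSWEET9b* forward: gaattcATGttttccttttctgat

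Of the 25 *MtSWEET* genes, 10 had an FPKM of at least 1 in Salt_0h or Salt_2h. Relative to Salt_0h, 3 of the 10 were raised (*MtSWEET9b*, *MtSWEET15c* and *MtSWEET16*) and 1 was lowered (*MtSWEET3c*), beside 11.8% and 14.5% of all genes. Against all 3 libraries at 0 h, 1 was raised (*MtSWEET9b*) and 0 were lowered, beside 8.53% and 8.24%. Of the 10, *MtSWEET9b* and *MtSWEET15c* passed the filter only through Salt_2h, so these counts lean towards rises. With no fold asked for, Salt_2h lay above all 3 libraries at 0 h for 5 of the 10 and below them for 2, beside 31.6% and 49.8% of all genes tested. Their summed FPKM was 206 in Salt_0h, 204 in Cold_0h, 197 in Drought_0h and 221 in Salt_2h.

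**Figure D4:**
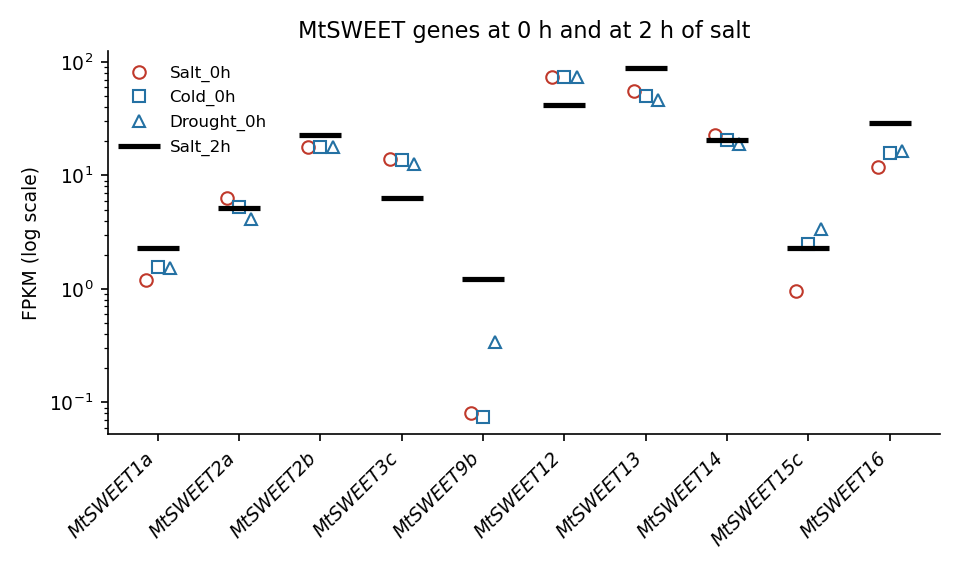
FPKM (vertical axis, log scale) of the 10 *MtSWEET* genes that passed the filter, with open symbols for the libraries at 0 h and a black bar for Salt_2h. The bar lies above all symbols for *MtSWEET1a*, *MtSWEET2b*, *MtSWEET9b*, *MtSWEET13* and *MtSWEET16* and below them for *MtSWEET3c* and *MtSWEET12*, and the Salt_0h symbol of *MtSWEET15c* lies below the others at 0.949.

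In clade I, 4 of 7 genes passed the filter. *MtSWEET3c* was at an FPKM of 14 in Salt_0h, 13.7 in Cold_0h and 12.5 in Drought_0h, and at 6.27 in Salt_2h. All libraries at 0 h were above Salt_2h, and the log2 ratio to Salt_0h was -1.16 (95% interval -1.44 to -0.88, from 257 and 185 fragments). The ratio to Drought_0h was 0.502, just outside the threshold of 0.5, which is why the call did not hold against all 3. Its FPKM was 3.47 at 6 h and 1.57 at 12 h of salt, 6.26 in Drought_2h and 14.6 in Cold_2h.

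*MtSWEET2b* was at 17.7 in Salt_0h, 17.9 in Cold_0h, 17.9 in Drought_0h and 22.6 in Salt_2h, a log2 ratio to Salt_0h of 0.35 (95% interval 0.20 to 0.50) that was not called. It was called raised in the cold comparison, where the FPKM was 49.2 in Cold_2h. *MtSWEET1a* was at 1.2, 1.57 and 1.54 in Salt_0h, Cold_0h and Drought_0h and at 2.28 in Salt_2h, with a log2 ratio to Salt_0h of 0.93 (95% interval 0.16 to 1.76, from 19 and 58 fragments). That to Cold_0h was 0.54, with an interval of -0.14 to 1.26 that includes 0. The FPKM of *MtSWEET1a* was 2.79 at 6 h and 15.6 at 12 h of salt, and 1.37 in Drought_2h. At 0.649 in Cold_2h (16 fragments), it was called lowered in the cold comparison. *MtSWEET2a*, at 5.2 in Salt_2h, lay within its 0 h values of 4.1 to 6.28.

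In clade III, 5 of 10 genes passed. *MtSWEET9b* was at an FPKM of 0.0811 in Salt_0h (1 fragment), 0.0745 in Cold_0h (1 fragment) and 0.341 in Drought_0h (5 fragments), and at 1.21 in Salt_2h (24 fragments). It was low in all libraries at 0 h and passed the filter only through Salt_2h. The log2 ratio was 3.90 relative to Salt_0h (95% interval 1.28 to 9.26) and 1.83 relative to Drought_0h (0.41 to 3.58), so the size of the rise was poorly determined at this depth. With a pseudocount of 1, the log2 ratio relative to Salt_0h was 1.03. Its FPKM was 3.75 at 6 h and 6.29 at 12 h of salt, 0.966 in Drought_2h and 0.417 in Cold_2h (8 fragments), the last also above its Cold_0h value.

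*MtSWEET12*, the most abundant *MtSWEET* transcript at 0 h, was at 74.2 in Salt_0h, 74.1 in Cold_0h, 73.9 in Drought_0h and 41.9 in Salt_2h. Its libraries at 0 h were nearly equal, and the log2 ratio to each of them was -0.82 (95% interval relative to Salt_0h -0.91 to -0.73), short of the 2-fold rule. It was at 87.5 in Drought_2h and 83 in Cold_2h, above its 0 h values.

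*MtSWEET13* was at 55.8 in Salt_0h, 50.5 in Cold_0h, 46.4 in Drought_0h and 88.1 in Salt_2h, the highest FPKM of the family in that library. The log2 ratio to Salt_0h was 0.66 (95% interval 0.56 to 0.76), and those to Cold_0h and Drought_0h were 0.80 and 0.92, all short of the rule. Its FPKM was 148 at 6 h and 76.7 at 12 h of salt, 83.9 in Cold_2h and 29.8 in Drought_2h. *MtSWEET14*, at 20.4 in Salt_2h, lay within its 0 h values of 18.9 to 22.8.

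*MtSWEET15c* was at 0.949 in Salt_0h (16 fragments), 2.51 in Cold_0h (46 fragments) and 3.34 in Drought_0h (67 fragments), and at 2.29 in Salt_2h (62 fragments). Salt_0h was the lowest of the libraries at 0 h, and the call rested on it. The log2 ratio was 1.27 relative to Salt_0h (95% interval 0.46 to 2.16), -0.13 relative to Cold_0h (-0.70 to 0.45) and -0.55 relative to Drought_0h (-1.07 to -0.03), so the direction turned with the control library.

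*MtSWEET16* is the only clade IV member. It was at 11.8 in Salt_0h, 15.7 in Cold_0h and 16.3 in Drought_0h, and at 29.2 in Salt_2h, above all of them. The log2 ratio was 1.31 relative to Salt_0h (95% interval 1.08 to 1.55, from 183 and 730 fragments), 0.89 relative to Cold_0h (0.69 to 1.10) and 0.84 relative to Drought_0h (0.65 to 1.04), so it was called against Salt_0h only. Its FPKM was 8.82 at 6 h and 2.49 at 12 h of salt, below every 0 h value. It was 9.73 in Drought_2h and 17.4 in Cold_2h, the latter above every 0 h value.

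The other 15 *MtSWEET* genes, among them all 7 of clade II, stayed under the filter and held at most 15 fragments in any of the libraries at 0 h or in Salt_2h. *MtSWEET15d* had the highest FPKM of these, 0.823 in Salt_0h, 1.03 in Cold_0h and 0.692 in Drought_0h, and was at 0.14 in Salt_2h. It held 11, 15, 11 and 3 fragments, and the log2 ratio to Salt_0h was -2.56 (95% interval -5.04 to -0.64). *MtSWEET5b* and *MtSWEET6* were at 0 in all 4 libraries, which allows up to 3 fragments in each. The interval of *MtSWEET15d* was below 0 relative to each library at 0 h. For *MtSWEET3b*, with 0 fragments in Salt_0h, 5 in Cold_0h, 2 in Drought_0h and 10 in Salt_2h, it was above 0 relative to Salt_0h only. Changes of the remaining genes were not detectable at this depth.

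*ACTIN*, the reference gene of the study's qRT-PCR, was at 262 in Salt_0h, 264 in Cold_0h, 275 in Drought_0h and 228 in Salt_2h. It was lower in Salt_2h than in all libraries at 0 h, with a log2 ratio to Salt_0h of -0.20 (95% interval -0.23 to -0.16), beside a median of -0.18 over all genes. Under the median ratio scaling it was -0.05.

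The first hours of salt were then set beside those of drought and cold, each against its own library at 0 h, so that the comparisons share no library. The hours of treatment are the same in all 3 stresses, and effects of a shared time of day were not tested. Drought_2h had 2280 genes raised (9.91%) and 2081 lowered (9.05%), and Cold_2h had 1272 raised (5.63%) and 1455 lowered (6.44%). Of the genes raised in Salt_2h relative to Salt_0h, 1053 were raised in Drought_2h as well, which is 38% of the salt list and 46.2% of the drought list. Among the lowered genes 1033 were shared, 30.3% of the salt list and 49.6% of the drought list. In opposite directions there were 85 genes raised in Salt_2h and lowered in Drought_2h, and 122 the other way.

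With cold, 519 raised genes were shared (18.8% of the salt list, 40.8% of the cold list) and 607 lowered genes (17.8% and 41.7%), and 124 and 106 genes were called in opposite directions. Across genes whose mean FPKM was 5 or more, the log2 ratios of salt and drought were correlated with r = 0.66 (Spearman's rho 0.62, 14670 genes), and those of salt and cold with r = 0.42 (rho 0.35, 14632 genes). Genes are not independent replicates, and these values describe single libraries. At 2 h, 1487 of the raised genes (53.7%) and 2069 of the lowered genes (60.8%) were called in that direction in salt alone, and 291 (10.5%) and 304 (8.93%) in all 3 stresses. The salt calls here are those relative to Salt_0h, and 477 raised and 979 lowered genes were called against that library only. The overlap was not counted for the calls that held against all 3 libraries at 0 h. A gene called in 1 stress alone is not shown to differ between stresses, which could not be tested with 1 library each.

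**Figure D5:**
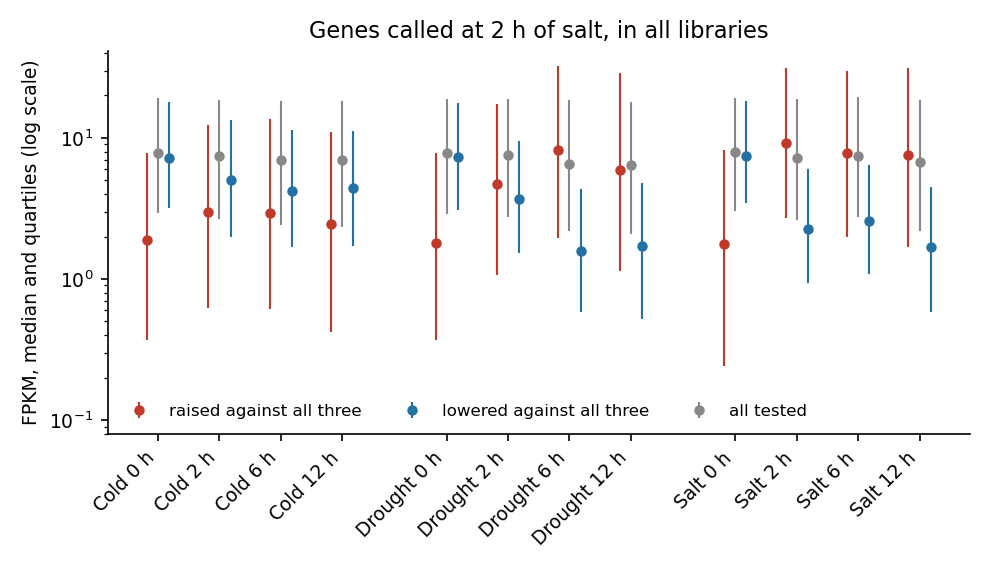
FPKM (vertical axis, log scale) of the genes raised or lowered at 2 h of salt against all 3 libraries at 0 h, and of all genes tested, in each of the 12 libraries (horizontal axis). Points are medians over genes and lines are quartiles. The raised genes have medians of 9.28, 7.88 and 7.58 at 2, 6 and 12 h of salt and 1.77 to 1.89 at 0 h. Salt_2h and the libraries at 0 h made the calls.

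The levels of the called genes were followed from Salt_2h, which made the calls, into the libraries that took no part in them. The 1998 raised genes had a median FPKM of 9.28 in Salt_2h, 7.88 in Salt_6h and 7.58 in Salt_12h, and their share of the summed FPKM was 13%, 13.8% and 15.9%. The 1928 lowered genes had medians of 2.25, 2.58 and 1.69. All genes tested had medians of 7.24, 7.49 and 6.75. Neither set was at its 0 h median at 12 h of salt. Salt_2h and the libraries at 0 h made the calls, however, so their medians are low or high by that choice. Neither a return to the 0 h medians nor a change from the Salt_2h medians was tested. In drought, the genes raised at 2 h of salt had medians of 4.69 at 2 h, 8.2 at 6 h and 5.95 at 12 h. In cold the medians were 2.97, 2.95 and 2.45, beside 1.89 in Cold_0h, which also took part in the calls. The genes lowered at 2 h of salt had medians of 3.72, 1.57 and 1.72 in drought and 5, 4.22 and 4.41 in cold. At 2 h the raised set made up 7.26% of the summed FPKM in Drought_2h and 6.03% in Cold_2h.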

How the data were processed

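Total RNA of whole seedlings was sequenced on an Illumina HiSeq instrument. The authors deposited FPKM values, 1 per gene and library. Their methods name Tophat for alignment to the Mt4.0v1 genome and StringTie for FPKM, whereas the submitters' processing notes list HTSeq and DESeq, and per the labels the libraries were of a 3′-tag type. Division by transcript length would distort levels between genes, but not ratios between libraries, if reads came from 3′ ends. How reads of similar genes were assigned is not given in the sources used here.

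Library depth and 1 length per gene were recovered from the FPKM steps, and values were whole fragments within 0.0001 for 100% of genes above 0. No count test was run, since each condition has 1 library. Ratios used no pseudocount. A gene at 0 in 1 library was called when the other was at least 1. For ratios, 95% intervals were made by the Clopper-Pearson method from the fragments of both libraries and cover counting error only. A count of 0 was read as up to 3 fragments. Steps were tested on simulated data.

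Named genes were the *MtSWEET* genes, *ACTIN*, and, ranked by the smallest absolute log2 ratio to the libraries at 0 h (pseudocount 1), 2 raised identifiers with an FPKM of at least 10 in Salt_2h and 2 lowered with at least 10 in every library at 0 h. Of the identifiers, 0 matched the reference gene names, so pathway lists, tissue markers and promoters were not analysed here. The genes and lists were chosen with earlier results of these data known. Alternatives changed the filter, pseudocount, threshold, scaling, control library and fragment minimum. The tools were scipy 1.17.1, numpy 2.4.6, Python 3.11.15, matplotlib 3.10.9 and pandas 2.3.3.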

Additional observations from a re-analysis of the deposited data

How the results depend on the processing

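The number of genes past the rule moved most with the threshold and with the treatment of low values. With a threshold of 1.5-fold, 4252 genes were raised and 6409 lowered relative to Salt_0h, and 3200 and 4127 against all 3 libraries at 0 h. With 3-fold, the counts were 1722 and 1458, and 1206 and 674. With an FPKM of at least 5, added after the data were seen and applied in each comparison, they were 1513 and 1788, and 1238 and 1131. A pseudocount of 1 left 2020 lowered genes relative to Salt_0h and 1105 against all 3 libraries, from 3405 and 1928. The other filters, a pseudocount of 0.1, TPM and median ratio scaling, the other control libraries, a minimum of 10 fragments and leaving out Salt_0h kept each count within 1.5 times its value. When Cold_0h, Drought_0h and Salt_0h all had to give the call, 1 *MtSWEET* gene was raised and 0 were lowered, and median ratio scaling raised 4. The log2 ratio of *MtSWEET15c* turned to -0.13 with Cold_0h and -0.55 with Drought_0h as control. Of 98 single gene values under alternatives, 72 stayed within the counting interval, 24 left it and the 2 of *MtSWEET15c* were reversed. Among the 24, 2 of uncalled genes changed sign with Drought_0h as control, *MtSWEET2a* from -0.27 to 0.34 and *MtSWEET14* from -0.16 to 0.11. No paired analysis was possible because each condition has 1 library. Depth limits *MtSWEET9b* and the 15 *MtSWEET* genes under the filter.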
